A study of Homo sapiens with 23 samples.

Results

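Metallothioneins are small cysteine-rich proteins that hold zinc and copper ions in clusters of thiolates, buffer free zinc and take up toxic metals such as cadmium. Their genes are switched on by the zinc-sensing transcription factor MTF1, which binds metal response elements in their promoters, and are also known to respond to glucocorticoids and oxidative stress. MT2A is usually the most abundant family member in human epithelial cells, and the MT1 genes lie next to it on chromosome 16. The members described here are the 8 genes MT2A, MT1X, MT1E, MT1F, MT1G, MT1M, MT1A and MT1H of the 58358 genes in the deposited RNA table. They were chosen by the measured MT2A level, since MT2A took the largest share of TPM, the length-corrected abundance of a transcript relative to all others, in the library of the Y234C line, and so every value of MT2A in Y234C, and every contrast of Y234C with other lines, is given as a description without a test.

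RNA was sequenced from 13 lines of MCF10A, a non-transformed human mammary epithelial line, with 1 library per line and no treatment. The panel held 10 lines with a missense p53 mutant, of which 6 were structural (Y234C, R175H, H179R, G245S, Y163C and Y220C) and 4 of the DNA contact class (R273C, R273H, R248W and R248Q), and 3 control lines, WTKD with wild-type p53 knocked down, WTOE with wild-type p53 overexpressed and WT. Each mutant carried a V5 tag at its C-terminus and was expressed from a lentiviral vector in cells that kept their own wild-type p53, and wild-type p53 in WTOE came from a different vector. Western blots of the panel did not show raised mutant protein in Y234C, unlike the other mutant lines, which limits what its library can say of the mutant protein. The medium of every line contained hydrocortisone, a glucocorticoid, and insulin, and V5 ChIP-seq peak lists covered 5 of the lines (Y234C, Y220C, R273C, R273H and WTOE). H179 is one of the residues that hold the zinc ion of p53 and R175 lies beside another, so R175H and H179R are called zinc-site mutants below. The other structural mutants change other residues of the DNA-binding domain, whose distance from the zinc was not examined.

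Values are TPM, or log2(TPM+1) where stated, and a gene was tested when its log2 value was at least 1 in at least 3 of 13 lines, which 14884 genes met. Of the 8 members, 6 met it, while MT1A and MT1H did not. Basal mammary markers summed to 6152 TPM in Y234C and to 2652 to 6321 TPM in the other 12 lines, and luminal markers to 638 TPM in Y234C and 108 to 757 TPM in the others. Markers of other cell types summed to less, with 3.03 TPM in Y234C and 2.69 to 61.6 in the others for 7 fibroblast genes, 0 and 0 to 6.13 for 5 endothelial genes, and 25.6 and 0 to 48.9 for 5 blood genes. Of their defining genes, PTPRC, CD3E and HBB (blood), COL1A2 (fibroblast) and VWF (endothelial) were listed at 0 in every line, as was the luminal marker KRT19. CDKN1A, a p53 target that halts the cell cycle, stood at 6.95 on the log2 scale in WTKD, at 6.46 in the library labelled WTOE and at 7.78 in WT. The library labelled WTOE thus had less CDKN1A than WT, which goes against overexpressed wild-type p53, and this applies wherever it is named. Genes with a value above 0 numbered 12409 in Y234C and 12122 in R273H, against 12284 to 15975 in the other 11 lines. The 50 most abundant genes took 46.8% of TPM in Y234C and 37.4% in R273H, against 27.1% to 33.6% in the other 11.

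MT2A (ENSG00000125148, GRCh38 chr16:56608584-56609497, plus strand, 3 exons) encodes the main metallothionein of these cells. It stood at 148407 TPM in Y234C, against 20589 TPM in R175H, 13056 in H179R, 24869.5 in G245S, 15007 in Y163C and 16549 in Y220C. The DNA contact mutants had 15623 TPM in R248Q, 13628 in R248W, 23563 in R273C and 20766 in R273H, and the control lines had 12713 in WTKD, 9850.2 in the library labelled WTOE and 19900.1 in WT. Y234C lay 5.97 times above the next line, G245S, and 9.23 times above the median of the other 12 lines, which themselves spanned a 2.52-fold range. MT2A was thus the most abundant gene of the Y234C library, with 14.8% of all TPM, against 0.985% to 2.49% in the other 12. In 11 of those 12 libraries the first place was held by MTRNR2L1, a humanin-like gene that resembles mitochondrial ribosomal RNA, and in R273H by the ribosomal protein gene RPL36. In RNA of whole cultures, fewer cells of a type and less RNA per cell cannot be told apart.

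**Figure D1:**
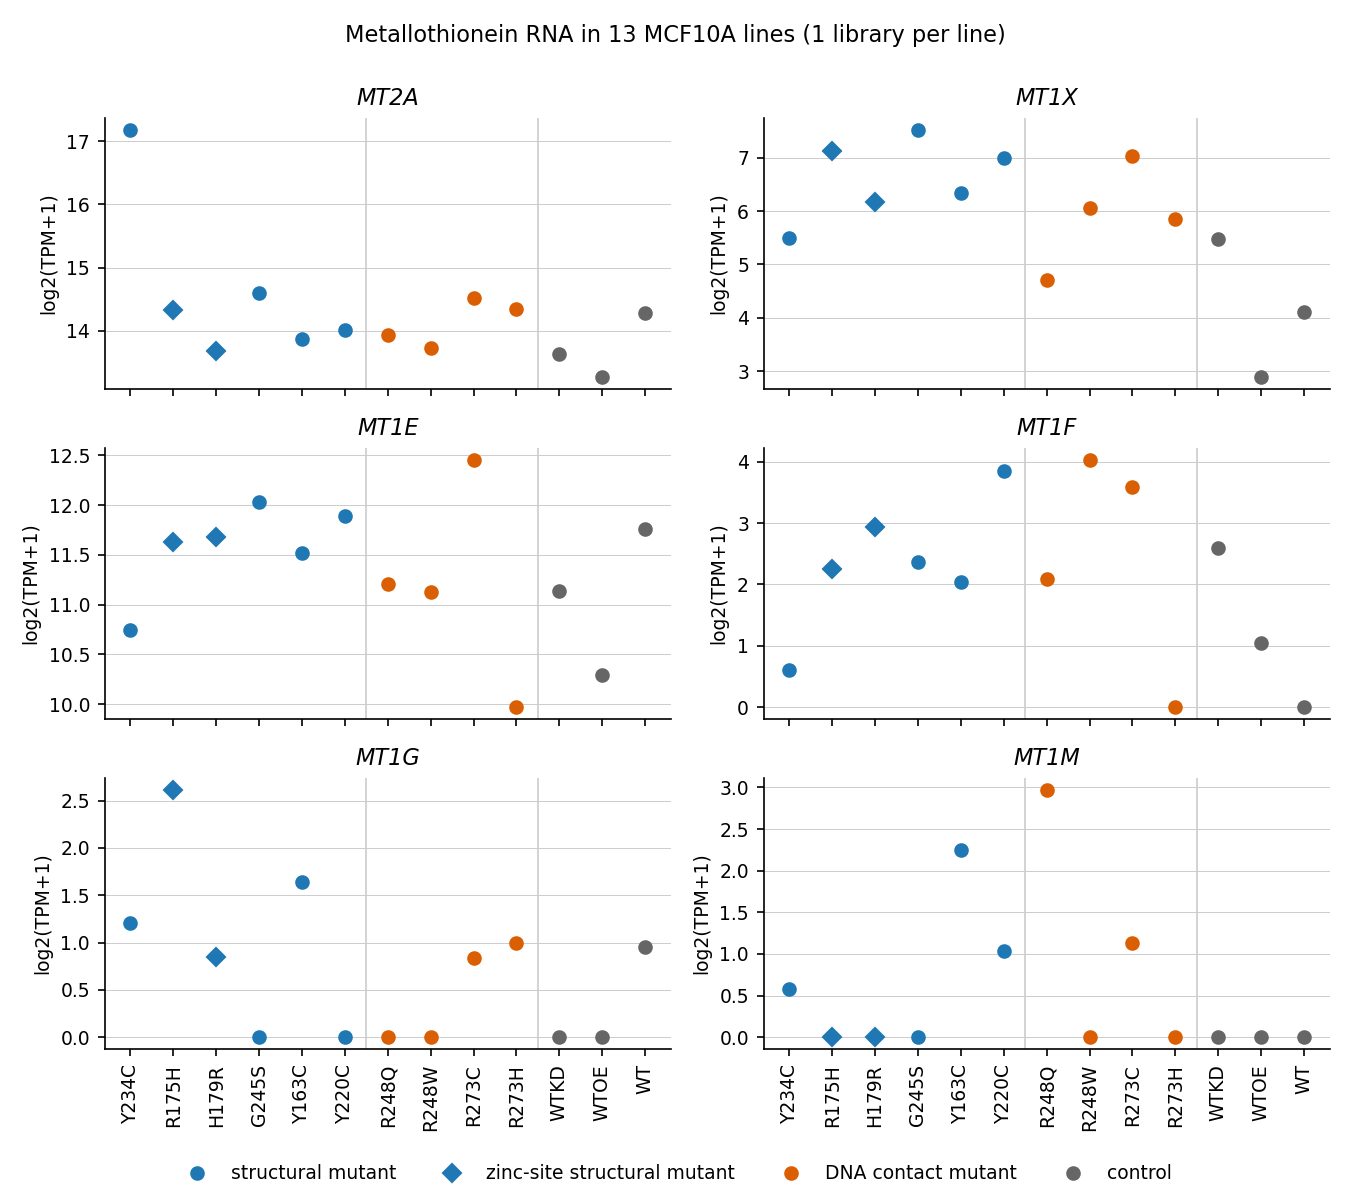
Level of the 6 tested metallothionein genes in each of 13 MCF10A lines, as log2(TPM+1) on the y axis of each panel, with 1 point per library and an axis range set per gene. MT2A stood at 17.18 in Y234C and between 13.27 and 14.60 in the other 12 lines, whereas MT1X, MT1E and MT1F in Y234C lay within the range of the other 12.

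The order of the lines by MT2A level below Y234C was G245S, R273C, R273H, R175H, WT, Y220C, R248Q, Y163C, R248W, H179R, WTKD and the library labelled WTOE. Neighbours in this order differed by 1.01 to 1.29 times, and with 1 library per line no spread within a line could be set against these steps. Structural and contact lines were mixed along the order, while WTKD and the library labelled WTOE held its 2 lowest places and WT stood among the mutants.

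After MT2A, MT1E (ENSG00000169715, GRCh38 chr16:56625475-56627112, plus strand) was the only other member at a high level. It stood at 1713 TPM in Y234C, against 3158 TPM in R175H, 3279 in H179R, 4190.5 in G245S, 2942 in Y163C and 3801 in Y220C. The contact mutants had 2366 TPM in R248Q, 2229 in R248W, 5612 in R273C and 1002 in R273H, and the controls had 2247 in WTKD, 1252 in the library labelled WTOE and 3476 in WT. Y234C therefore ranked 11th of 13 lines for MT1E while ranking first for MT2A, and R273C and R273H, which change the same residue, held the highest and the lowest MT1E value of the panel.

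MT1X (ENSG00000187193, GRCh38 chr16:56682470-56684196, plus strand) stood at 44.1 TPM in Y234C, 138 in R175H, 70.7 in H179R, 183 in G245S, 79.9 in Y163C and 127 in Y220C. The contact mutants had 25.1 TPM in R248Q, 66.0 in R248W, 129.6 in R273C and 56.9 in R273H, and the controls had 43.4 in WTKD, 6.40 in the library labelled WTOE and 16.3 in WT. Across the 12 lines other than Y234C it spanned a 28.6-fold range, the widest among the 3 members detected in every line. An annotated long non-coding RNA, ENSG00000259827 (chr16:56682470-56687807, plus strand), spans all of MT1X and was listed at 0 in every line. Whether reads shared by the 2 genes were counted or dropped was not tested, so MT1X values are uncertain in every line.

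The remaining members were low. MT1F ran from 0.521 TPM in Y234C to 15.4 TPM in R248W among the 11 lines where it was above 0, and was listed at 0 in R273H and WT. MT1G was above 0 in 7 lines, with its highest value, 5.12 TPM, in R175H, and MT1M in 5 lines, all of them mutants, with its highest value, 6.84 TPM, in R248Q. MT1A was listed above 0 only in Y163C, at 1.12 TPM, and MT1H only in R175H, at 1.54 TPM. Since the table holds no counts, the depth behind these low values is unknown, the reads were highly duplicated, and a value of 0 does not show that the gene was silent.

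The promoters of members with very different levels are shown for the elements through which metals are known to act on them. RefSeq promoter sequences of GRCh38.p14 were matched for 3 of 8 members. The 250 bases before the annotated start are given, with the core of the metal response element (TGCACNC or TGCGCNC, on either strand) in capitals.
MT2A promoter (chr16:56608334-56608583, plus strand): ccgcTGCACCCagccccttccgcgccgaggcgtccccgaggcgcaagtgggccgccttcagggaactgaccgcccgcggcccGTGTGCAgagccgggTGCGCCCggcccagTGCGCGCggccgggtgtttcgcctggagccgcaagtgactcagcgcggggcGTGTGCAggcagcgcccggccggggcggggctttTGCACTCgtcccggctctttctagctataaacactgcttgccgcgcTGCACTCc
MT1X promoter (chr16:56682220-56682469, plus strand): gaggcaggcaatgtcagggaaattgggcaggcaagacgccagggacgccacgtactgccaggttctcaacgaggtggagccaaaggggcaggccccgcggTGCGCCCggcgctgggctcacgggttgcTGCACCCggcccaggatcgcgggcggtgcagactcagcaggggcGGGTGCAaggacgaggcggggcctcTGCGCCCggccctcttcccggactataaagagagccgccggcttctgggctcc
MT1H promoter (chr16:56669564-56669813, plus strand): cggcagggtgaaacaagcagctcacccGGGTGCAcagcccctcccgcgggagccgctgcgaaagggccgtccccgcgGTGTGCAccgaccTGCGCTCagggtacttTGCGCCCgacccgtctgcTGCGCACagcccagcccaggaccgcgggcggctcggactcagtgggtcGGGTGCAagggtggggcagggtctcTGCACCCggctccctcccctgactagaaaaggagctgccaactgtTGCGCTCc
MT2A held 7 cores, MT1X 4 and MT1H 8 in these 250 bases, with both strands searched and overlapping sites allowed. Of 35116 promoters, 24.8% held at least 1 core, 0.370% at least 4, 0.0313% at least 7 and 0.0171% at least 8. MT1H, with the most cores, was listed at 0 in 12 of 13 lines, so the number of cores did not order these 3 genes by level. None of the 3 windows held a p53 half-site, which 5.57% of promoters did.

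The make-up of the family in Y234C was unlike that of the other libraries. MT2A supplied 98.8% of the TPM of the 8 members in Y234C, against 79.5% to 95.1% in the other 12 lines, and MT1E supplied 1.14%, against 4.59% to 20.0%. The ratio of MT2A to MT1E was 86.6 in Y234C, 20.7 in R273H, 7.87 in the library labelled WTOE and 3.98 to 6.60 in the other 10 lines. R273H, next in order, had the lowest MT1E value of the panel and an MT2A level inside the range of the other lines. The 7 MT1 members together amounted to 1759 TPM in Y234C, against 1060.3 TPM in R273H at the low end and 5755 TPM in R273C at the high end of the other 12.

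**Figure D2:**
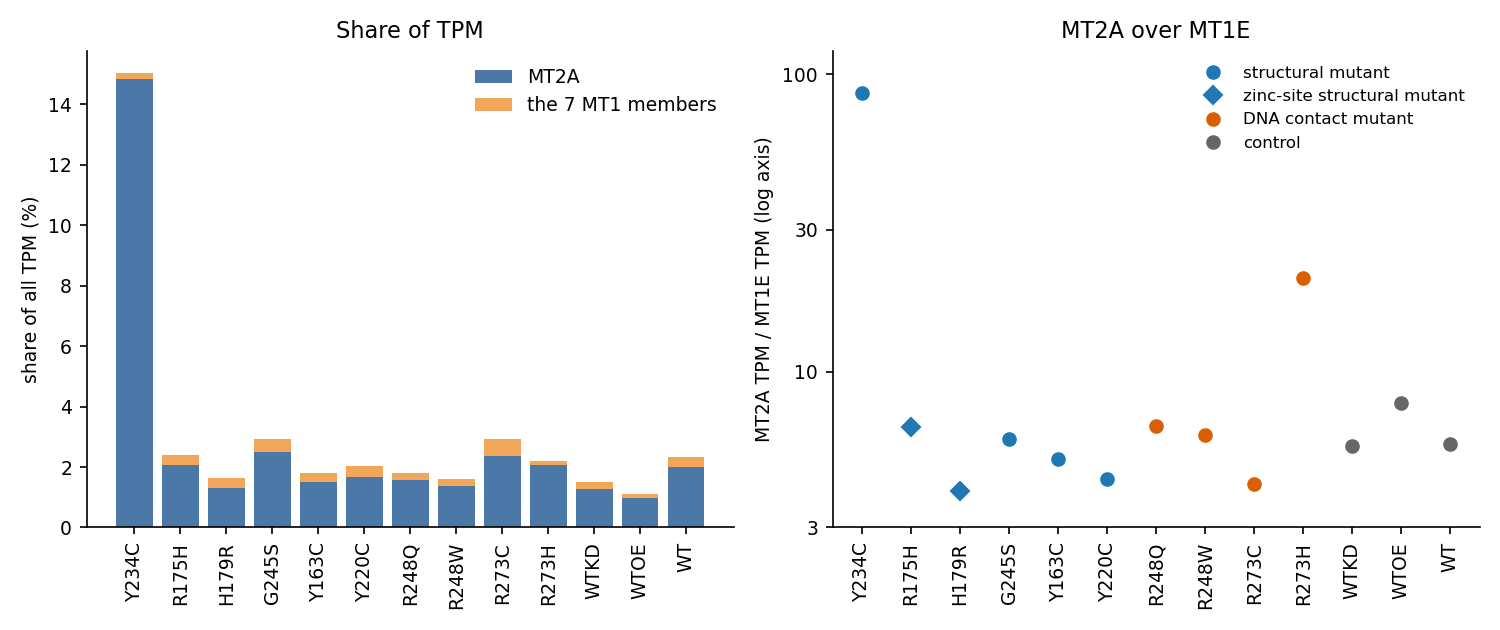
Left, share of all TPM (%) taken by MT2A and by the 7 MT1 members in each line, as stacked bars from 0, and right, MT2A TPM divided by MT1E TPM in each line on a log axis, with 1 point per library. MT2A took 14.8% in Y234C and at most 2.49% elsewhere, and the ratio was 86.6 in Y234C and at most 20.7 elsewhere.

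Set against the mean of the other 9 mutants, MT2A in Y234C was 3.07 higher on the log2 scale and MT1G 0.43 higher, while MT1F differed by -1.97, MT1X by -0.93, MT1E by -0.76 and MT1M by -0.24. The median of all tested genes was -0.87 in the same contrast, in which 9.99% of tested genes were at least 1 higher, 45% at least 1 lower and 55% either. The members were chosen on the MT2A level of the Y234C library, which enters this contrast, so its values are a description only.

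Among the other metallothionein genes, some pseudogenes were high in Y234C and others were not. MT2P1, a processed pseudogene on chromosome 4 (GRCh38 chr4:68376323-68376505), stood at 1653 TPM in Y234C, against 20.1 TPM in the library labelled WTOE and 46.5 to 157 TPM in the other 11 lines. This equals 1.11% of the MT2A level in Y234C, against 0.204% to 0.779% in the other 12. MT1P1, a processed pseudogene on chromosome 9, stood at 414 TPM in Y234C, against 0 to 161 TPM elsewhere, and MT1XP1 on chromosome 1, which was named after its value had been seen, at 249 TPM, against 5.38 to 137 TPM. Of the 12 other metallothionein genes that were listed, 11 were in the table and 5 were tested, and 3 of these 5 (MT2P1, MT1P1 and MT1JP) lay above all other 12 lines in Y234C, where 6.12% of all tested genes did. The other 2 tested, MT1L and MT1HL1, lay within the range of the other 12. MT1L, a transcribed pseudogene between MT2A and MT1E, stood at 252 TPM in Y234C, against 41.4 to 374 TPM. MT1B, MT3, the brain form, and MT4, the form of stratified epithelium, were listed at 0 in every line.

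To show how close MT2P1 is to its parent, the coding sequence of MT2A without its stop codon is set against the whole of MT2P1 here, with the 5 bases at which they differ in capitals.
MT2A coding sequence (3 exons, spliced): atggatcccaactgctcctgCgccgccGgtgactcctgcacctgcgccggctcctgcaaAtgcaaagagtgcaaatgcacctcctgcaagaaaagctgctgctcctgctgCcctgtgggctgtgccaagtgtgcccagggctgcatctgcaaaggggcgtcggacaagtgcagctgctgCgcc
MT2P1: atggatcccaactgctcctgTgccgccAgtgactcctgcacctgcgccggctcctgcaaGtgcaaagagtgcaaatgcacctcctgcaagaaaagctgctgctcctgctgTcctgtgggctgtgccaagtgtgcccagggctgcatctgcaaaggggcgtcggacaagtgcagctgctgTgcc
Both are 183 bases long and 97.3% identical, with no gap. No stretch of 75 bases, the length of a read, in the MT2A transcript occurred elsewhere in the GENCODE transcripts or in the GRCh38 chromosomes, and the same held for MT2P1. The aligner allowed mismatches, so whether reads of MT2A were placed on MT2P1 was not tested. Among the MT1 members, 8.18% of 75-base stretches in MT1X and 6.55% in MT1G also occurred elsewhere, in each other or in MT1XP1. The share was 11.9% in MT1E, 10.8% in MT1H and 1.23% in MT1M, and no such stretch was found in MT1F and MT1A. Values of MT1X, MT1G, MT1E, MT1H and MT1M are therefore uncertain where reads fit another copy as well.

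The panel asks how p53 mutants differ from control lines. Without Y234C, MT2A averaged 14.11 ± 0.34 (SD, n = 9) on the log2 scale in mutant lines and 13.73 ± 0.51 (SD, n = 3) in control lines, and 4 of 9 mutants lay above the highest control. The log2 difference of 0.39 (SE 0.39) did not pass (limma, adjusted p = 0.879). MT1X showed the largest difference of the 6 tested members. It averaged 6.42 ± 0.86 (SD, n = 9) in mutants and 4.16 ± 1.29 (SD, n = 3) in controls, a log2 difference of 2.26 (SE 0.60, 95% interval 0.95 to 3.57), with an unadjusted p of 0.00267 and an adjusted p of 0.478 by limma. In 8 of 9 mutants MT1X was above the highest control, WTKD, and the exception was R248Q, where 1.82% of all tested genes had at least 8 of 9 mutants above the highest control. Over 18 alternatives the difference lay between 1.63, without the library labelled WTOE, and 2.92, without WTKD, and the limma adjusted p for these 2 was 0.891 and 0.215, the highest and lowest of the 18.

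None of the 6 tested members passed in mutants against controls, where 0.0403% of all tested genes did, 6 in all. At an unadjusted p under 0.05 the only member was MT1X, where 5.95% of tested genes reached that level, 3.02% higher and 2.94% lower in mutants. All 6 differences were positive, with a median of 0.64 against -0.0014 over all tested genes, and the members share libraries and sequence. The other 4 differences were 1.36 (SE 0.81) for MT1F, 0.82 (SE 0.64) for MT1M, 0.45 (SE 0.52) for MT1G and 0.44 (SE 0.51) for MT1E, with adjusted p of 0.856 to 0.908 by limma. MT1M was listed at 0 in all 3 control lines.

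**Figure D3:**
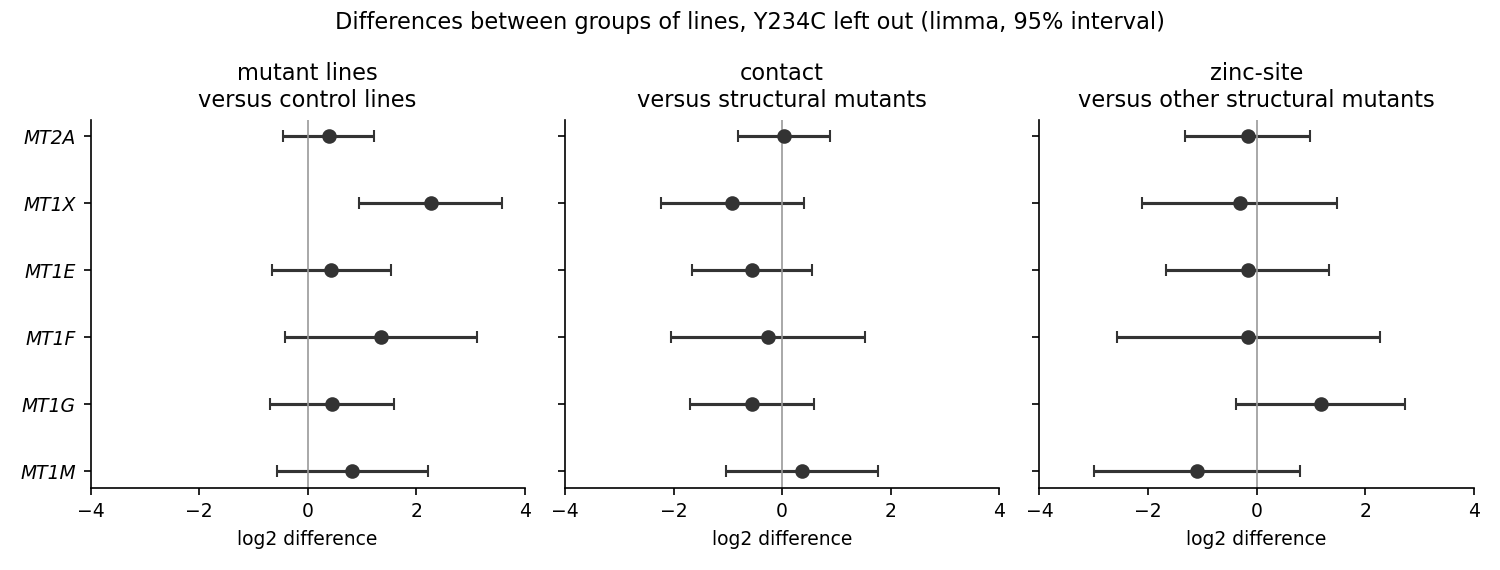
Log2 difference of each tested metallothionein gene in 3 comparisons between groups of lines, with limma's 95% interval as horizontal bars, Y234C left out. All intervals include 0 apart from that of MT1X in mutant against control lines, which runs from 0.95 to 3.57.

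DNA contact mutants, which change residues that touch DNA, were next set against structural mutants, which change residues known for a part in the conformation of the domain. MT2A averaged 14.13 ± 0.36 (SD, n = 4) in contact mutants and 14.10 ± 0.37 (SD, n = 5, Y234C left out) in structural mutants, with a log2 difference of 0.035 and a 95% interval of -0.81 to 0.88 (limma, adjusted p = 0.985). MT1E ranged from 9.97 to 12.45 in contact mutants and from 11.52 to 12.03 in structural mutants, so the 4 contact values enclosed all 5 structural values. MT1X averaged 5.91 ± 0.95 (SD, n = 4) in contact mutants and 6.83 ± 0.57 (SD, n = 5) in structural mutants, a log2 difference of -0.91 (SE 0.61, adjusted p = 0.728 by limma). None of the 6 tested members passed, where 0.00672% of tested genes did, 1 in all, and none reached an unadjusted p under 0.05, where 6.9% of tested genes did, 2.42% higher and 4.48% lower in contact mutants. The 95% intervals of the 6 ran from -2.23 for MT1X at the low end to 1.76 for MT1M at the high end, so large differences in either direction could not be told from none.

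Among structural mutants, the 2 zinc-site lines did not differ from the 3 others past the test in any metallothionein gene. MT2A stood at 14.33 in R175H and 13.67 in H179R on the log2 scale, against 14.60 in G245S, 13.87 in Y163C and 14.01 in Y220C, so the zinc-site values lay on either side of 2 of the other 3 lines. The log2 difference was -0.16 (SE 0.53) with a 95% interval of -1.32 to 0.99, and the limma adjusted p was 1. MT1E, at 11.63 in R175H and 11.68 in H179R, lay between Y163C at 11.52 and Y220C at 11.89. MT1X stood at 7.12 in R175H and 6.16 in H179R, against 7.52 in G245S, 6.34 in Y163C and 6.999 in Y220C. For both MT2A and MT1X, R175H and H179R were further from each other than the means of the groups were.

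Of the 3 low members that were tested, MT1F differed by -0.15 (SE 1.11), the smallest difference of the 6, while MT1G and MT1M had the largest. MT1G averaged 1.73 in the 2 zinc-site lines and 0.55 in the 3 others on the log2 scale, a difference of 1.18 (SE 0.72) that rested mainly on R175H. MT1M was listed at 0 in both zinc-site lines and averaged 1.10 in the others, a difference of -1.10 (SE 0.87). MT1H was listed above 0 in R175H alone. None of the 6 tested members passed by limma or reached an unadjusted p under 0.05 in this comparison, where 0.00672% and 3.23% of tested genes did, the second made of 1.24% higher and 2% lower in zinc-site lines. The median difference of the 6 was -0.16, against -0.11 over all tested genes. Of the 5 other metallothionein genes tested, the largest differences were -1.76 (SE 1.68) for the pseudogene MT1P1 and 1.62 (SE 0.81) for MT1HL1, and none passed.

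Pairs of lines with a change at the same residue, or of the same kind, were compared as single libraries without a test. R248W had 0.872 times the MT2A of R248Q but 2.63 times its MT1X and 4.69 times its MT1F. In that pair 39.8% of all tested genes differed by at least 1 on the log2 scale, 22.4% higher and 17.4% lower in R248W. R273C had 1.13 times the MT2A of R273H, 5.60 times its MT1E and 2.28 times its MT1X, in a pair where 54.3% of tested genes differed by that much, 44% higher and 10.4% lower in R273C. MT2A was close to equal within each pair, while MT1X was higher in R248W and in R273C.

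Against WT, WTKD had 0.639 times the MT2A, 0.647 times the MT1E and 2.66 times the MT1X, and 40.4% of tested genes differed by at least 1 on the log2 scale, 25% higher and 15.4% lower in WTKD. The library labelled WTOE had 0.495 times the MT2A of WT, 0.360 times its MT1E and 0.392 times its MT1X, with 38.4% of tested genes at least 1 apart, 20.4% higher and 18% lower in the library labelled WTOE. Both contrasts use the same WT library. MT2A and MT1E were lower than in WT in both, whereas MT1X was above WT in WTKD and below it in the library labelled WTOE.

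Of the genes that sense and move zinc, several were low in Y234C where MT2A was high. MTF1 stood at 2.57 on the log2 scale in Y234C, against 3.49 to 5.67 in the other 12 lines. SLC30A1, the zinc exporter of the plasma membrane and itself a known MTF1 target, stood at 4.26, against 5.84 to 7.15. The zinc importer SLC39A10 stood at 4.70 in Y234C, against 5.17 to 6.99, and the importer SLC39A14 at 5.50, against 6.21 to 7.33, so all 4 genes lay below every other line. SLC39A4, the importer of dietary zinc, was the other way round, at 9.10 in Y234C, against 6.68 to 8.62, as was SLC39A3 at 5.42, against 1.30 to 4.94. SLC30A2, another zinc transporter, was listed at 0 in every line.

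Of 26 tested genes of zinc and copper handling, 13 lay below all other 12 lines in Y234C and 2 above, in a library where 24.2% of all tested genes lay below and 6.12% above. With MT2A left out of the total and the remaining genes rescaled, an alternative chosen after the data were seen, 12 lay below and 3 above, against 21% and 7.55% of all tested genes. Before the pseudocount, the share held by MT2A lowers every other gene of Y234C above 0 by 0.23 on the log2 scale. Between Y234C and the mean of the other 9 mutants, the median log2 difference of tested genes was -0.87 as deposited. It was -0.79 with MT2A left out of the total. The Y234C library also had few genes detected and the largest share of TPM in its 50 top genes, and the part of both in these values was not tested.

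**Figure D4:**
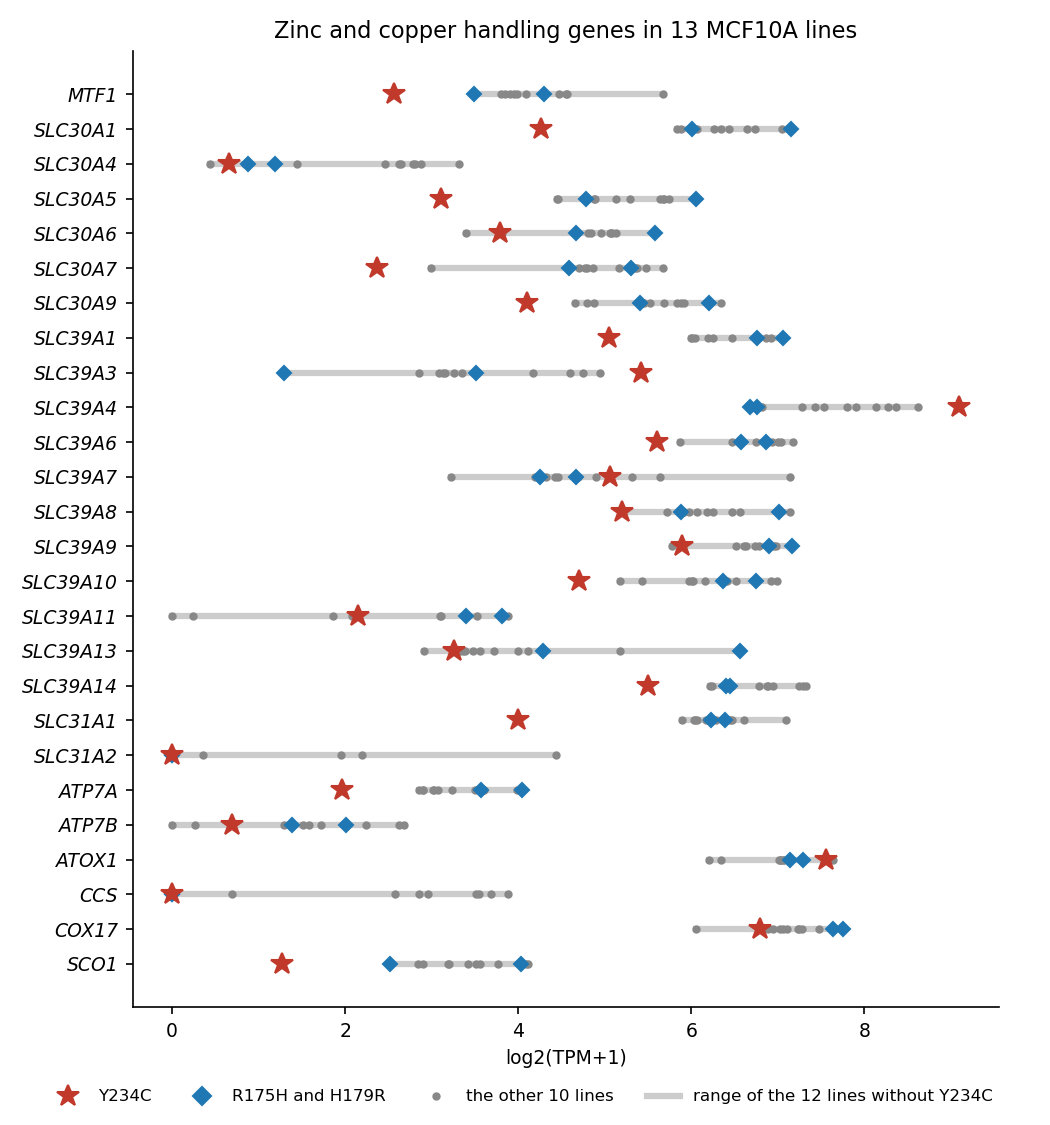
Level of the 26 tested genes of zinc and copper handling as log2(TPM+1) in 13 MCF10A lines, with Y234C as stars, R175H and H179R as diamonds, the other 10 lines as points and the range of the 12 lines without Y234C as bars. Y234C lay below the bar for 13 genes, MTF1 and SLC30A1 among them, and above it for SLC39A3 and SLC39A4.

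In the 3 comparisons between groups, no gene of zinc and copper handling passed the test. In mutants against controls, ATP7B, a copper pump, differed by 1.35 (SE 0.46, adjusted p = 0.647 by limma). CCS, which loads copper into superoxide dismutase, differed by -1.90 (SE 0.76, adjusted p = 0.758 by limma), and 10 of 26 differences were positive. Only ATP7B and CCS had an unadjusted p under 0.05 by limma, a level that 5.95% of all tested genes reached. In contact against structural mutants CCS differed by 1.91 (SE 0.76, adjusted p = 0.705 by limma). It was the only gene of the 26 at an unadjusted p under 0.05, a level that 6.9% of all tested genes reached. Between zinc-site and other structural mutants the largest differences were those of SLC39A13, a zinc transporter of the secretory pathway, at 2.00 (SE 0.74), and SLC30A4, which moves zinc into vesicles, at -1.44 (SE 0.79), both with a limma adjusted p of 1. SLC39A13 stood at 6.56 in R175H and 4.28 in H179R, against 2.91 in G245S, 3.36 in Y163C and 3.99 in Y220C. Of the 26, only SLC39A13 had an unadjusted p under 0.05 by limma here, a level that 3.23% of all tested genes reached. SLC30A4 stood at 1.18 in R175H and 0.88 in H179R, against 3.32 in G245S, 2.65 in Y163C and 1.44 in Y220C.

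Genes of 4 other responses were examined through lists, and their counts in Y234C stand beside 6.12% of all tested genes above the other 12 lines and 24.2% below. Of 11 genes in the glucocorticoid list, which holds the receptor gene NR3C1 beside induced genes, all were tested. Of these, 1 lay above the other 12 lines in Y234C and 3 below. FKBP5 stood at 8.80 in Y234C, against 7.61 to 9.80, TSC22D3 at 2.91, against 2.07 to 5.32, and PER1 at 6.19, against 4.46 to 7.20, all inside the range. SGK1, a kinase induced by glucocorticoids, was above it, at 6.93 against 3.22 to 5.45. Below it were NR3C1 at 4.63 against 5.34 to 7.71, DUSP1 at 5.39 against 6.39 to 8.54, and ERRFI1 at 4.96 against 6.83 to 8.52. Of 14 NRF2 antioxidant genes, 1 lay above and 4 below. HMOX1, which breaks down heme and is induced by metals, stood at 1.36 in Y234C, against 0 to 5.33, and GCLM, a subunit of the enzyme that starts glutathione synthesis, at 4.71, against 5.40 to 6.47.

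Of 9 tested heat shock genes, 1 (BAG3, at 8.41 against 6.47 to 7.88) lay above the other 12 lines in Y234C and 2 below, and HSPA1A, an inducible chaperone, stood at 6.97, against 5.07 to 7.07. Of 8 tested hypoxia genes, none lay above and 2 below. With MT2A left out of the total, 2 heat shock genes lay above and 2 below. HSPA1A was then above the range, at 146 TPM against 33.3 to 135 TPM. Of the NRF2 genes, 1 lay above and 3 below, and the glucocorticoid and hypoxia counts did not change. Of all tested genes, 7.55% lay above and 21% below in that setting. Of the 9 heat shock genes, 3 had an unadjusted p under 0.05 in mutants against controls, all higher, where 3.02% of all tested genes were higher at that level, with log2 differences of 1.11 (SE 0.39) for HSPA1A, 2.09 (SE 0.66) for HSPA1B and 1.09 (SE 0.43) for HSPB1, and limma adjusted p of 0.663, 0.622 and 0.758. HSPA1A and HSPA1B are near-identical copies, so the value of each is uncertain where reads fit both. An unadjusted p under 0.05 was also found for KLF9, a glucocorticoid-induced repressor, at 2.18 (SE 0.65, adjusted p = 0.579), and for TXNRD1, an NRF2 target, at 1.08 (SE 0.43, adjusted p = 0.758). In contact against structural mutants the unadjusted p was under 0.05 for PER1 at 1.23 (SE 0.41), HSPH1 at -1.13 (SE 0.49), HSPA8 at -0.93 (SE 0.42) and BNIP3 at 0.77 (SE 0.35), with limma adjusted p of 0.704 to 0.705, where 6.9% of all tested genes reached that level. No gene of these 4 lists passed in any of the 3 comparisons. Between zinc-site and other structural mutants, the 2 largest differences in each list were -1.42 (AKR1B10) and -1.13 (SRXN1) for NRF2 genes, -0.49 (DNAJB1) and -0.45 (HSF1) for heat shock genes, -0.78 (NFKBIA) and -0.72 (NR3C1) for glucocorticoid-induced genes, and -1.61 (BNIP3) and 1.08 (ANKRD37) for hypoxia genes.

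The genes on either side of the cluster were read to see whether a wider stretch of chromosome 16 moved with MT2A. NUP93, a nuclear pore gene that starts downstream of MT1X at GRCh38 chr16:56730118-56850286, stood at 7.21 on the log2 scale in Y234C, against 3.88 to 5.87 in the other 12 lines. BBS2, on the other side at chr16:56465640-56582667, stood at 1.75, against 0 to 4.002. Of 6 tested neighbours, NUP93 alone lay above the other 12 lines in Y234C and 1, HERPUD1, below, at 4.75 against 4.88 to 6.40. Of all tested genes, 6.12% lay above and 24.2% below. With MT2A left out of the total, NUP93 stayed above, while HERPUD1 was inside the range, at 30.4 TPM against 29.1 to 85.0 TPM. None of them passed in the 3 comparisons, and between zinc-site and other structural mutants the difference was -0.39 (SE 0.66) for NUDT21.

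Across the 12 lines other than Y234C, the Pearson r of MT2A was 0.61 with MT1X, 0.48 with MT1E and -0.086 with MT1F. With Y234C included, r was 0.18 with MT1X and -0.046 with MT1E. MT2P1 went with MT2A at 0.70 over 12 lines and 0.93 over 13. The 10 tested genes most like MT2A over the 12 lines were NPHP4, CCDC124, DAZAP1, NCBP2-AS2, AC021723.1, CTDSP1, PRRC2A, S100A13, QPCTL and STIM1, with r of 0.91 for NPHP4 down to 0.80 for STIM1. With Y234C included, r stayed at 0.73 for NPHP4 and 0.80 for QPCTL and was 0.15 for DAZAP1 and -0.12 for S100A13. MT1X ranked 222nd and MT1E 707th by this measure. These values describe 12 or 13 libraries that differ in gene detection, and the 10 were picked as the largest of 14884.

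V5 ChIP-seq asks where the tagged p53 protein sat. The 8 members span 75.6 kb of chromosome 16, and within 10 kb of any of them there was 1 peak in Y234C, 0 in Y220C, 0 in R273C, 1 in R273H and 0 in the library labelled WTOE, of 2145, 1575, 733, 25309 and 11277 peaks in the lists. The Y234C peak (GRCh38 chr16:56617270-56617541) had a fold enrichment over input of 3.64 and a -log10 q of 2.11, and its summit lay 8020 bp upstream of the MT1E start and 108 bp upstream of that of MT1L. It ended 22 bp before MT1L and was 7.77 kb from MT2A. The R273H peak (chr16:56657160-56657525) had a fold enrichment of 4.23 and a -log10 q of 2.59, with its summit 340 bp upstream of the MT1F start. MT1F was listed at 0 in the R273H library, and MT1L was within its usual range in Y234C.

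Both peaks had a low -log10 q within their lists, since only 21.4% of Y234C peaks and 32.4% of R273H peaks had a lower -log10 q. At a -log10 q of at least 3 neither remained, and no list had a peak within 10 kb of a member. From MT2A the nearest peak was 7.77 kb away in Y234C, 47.7 kb in R273H, 109 kb in the library labelled WTOE, 8448.74 kb in Y220C and 18328.2 kb in R273C. The sequence under the 2 peaks is given with metal response element cores in capitals, for Y234C the part before the start of the annotated non-coding RNA ENSG00000291105 and for R273H the bases around the summit.
Y234C peak (chr16:56617270-56617422, plus strand): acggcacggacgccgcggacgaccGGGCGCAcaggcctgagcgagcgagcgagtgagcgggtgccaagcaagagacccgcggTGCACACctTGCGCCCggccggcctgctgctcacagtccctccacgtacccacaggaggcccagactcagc
R273H peak (chr16:56657291-56657491, plus strand): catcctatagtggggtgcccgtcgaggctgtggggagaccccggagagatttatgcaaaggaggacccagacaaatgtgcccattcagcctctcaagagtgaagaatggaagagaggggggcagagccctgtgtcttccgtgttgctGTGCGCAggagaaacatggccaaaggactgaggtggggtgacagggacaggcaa
The whole Y234C peak held 4 cores and the whole R273H peak 2, and neither held a p53 half-site. In the 201 bases centred on each summit there were 2 cores in Y234C, a number that 3.70% of the 1863 Y234C peaks on assembled chromosomes reached, and 1 in R273H, which 14.2% of 24786 R273H peaks reached. A p53 half-site lay in that window in 4.67% of Y234C peaks and 10.4% of R273H peaks. G and C made up 68.2% of the window in the Y234C peak, against a median of 62.2% over its list. For the R273H peak these values were 57.2% and 39.8%. The part of base content in the number of cores was not tested.

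**Figure D5:**
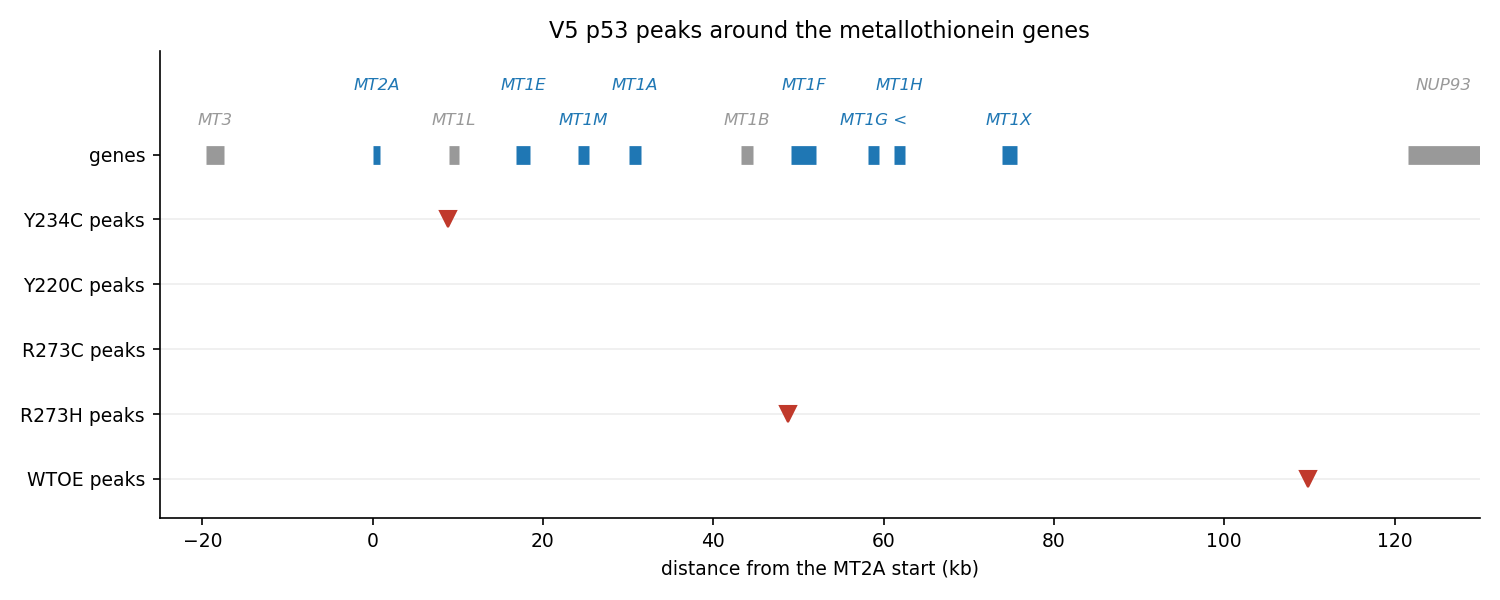
Metallothionein genes of chromosome 16 (members in blue, other genes in grey, < for the minus strand) against distance from the MT2A start in kb, with the summits of V5 peaks in 5 lists as triangles. Within 10 kb of a member there is 1 peak in Y234C, upstream of MT1L, and 1 in R273H, upstream of MT1F, and the peak of the library labelled WTOE lies 34.0 kb from MT1X.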

How the data were processed

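RNA reads were aligned by the authors to GRCh38 (STAR, Ensembl annotation) and counted per gene. They left out mitochondrial RNA, marked PCR duplicates, which were frequent, with removal switched off, used counts without them only as a reference, and deposited log2(TPM+1) values. The table holds no counts, and the depth behind each value is therefore unknown. For the peak lists, the authors used Bowtie2 2.1.0, SAMtools 1.7 and MACS2 2.1.2.20181017 against input at a q of 0.05. The fold enrichment, a ratio of ChIP to input, the -log10 p and q values and the score of each peak were deposited from MACS2. Strand use in counting is not given in the sources used here.

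Log2 differences were computed on log2(TPM+1), with a pseudocount of 1. Ratios of RNA levels, given as times or folds, were taken on TPM without a pseudocount. One limma fit (limma 3.58.1, R 4.3.3) covered 12 lines in 4 levels (contact, zinc-site, other structural, control), two-sided, with Benjamini-Hochberg adjustment over 14884 genes at 0.05. Y234C was left out because the members were picked on it. Lines served as replicates of their group, and with 1 library per line p-values measure only the spread between lines. The fit was tested on simulated data. Python 3.11.15, NumPy 2.4.6 and pandas 2.3.3 were used. GENCODE matched 57717 of 58358 gene IDs (98.9%). The members, lists and comparisons were chosen with earlier results of these data known. Genes named are the members, a set list of regulators and neighbours, list genes past a test, the 2 of each list with the largest zinc-site difference and the 10 most like MT2A, and other genes were named after their values had been seen. Alternatives were another pseudocount, no filter, rescaling, quantile normalization, a covariate for genes detected, all 13 lines and leaving out each line, and for peaks 50 kb and a -log10 q of 3. Amino acid sequences were not used here. Some genes of the lists are not reported here.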

Additional observations from a re-analysis of the deposited data

Results flagged for a closer look

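Dixon's gap was read for 22 genes in the 6 structural lines and 21 genes in the 4 DNA contact lines, where chance flags about 1 in 20 groups. MT2A in the structural lines was left out, since the members were picked on its Y234C value. On the log2 scale, MT1A in Y163C, at 1.08, and MT1H in R175H, at 1.34, stood apart because both genes were listed at 0 in the other structural lines. Among the contact mutants, MTRNR2L1 in R273H stood at 14.72, far below the next line, R273C at 15.79.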

How the results depend on the processing

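No paired analysis was possible because each line has 1 library and replicate numbers only name lines. None of the 6 tested members passed under any alternative. Of 324 member differences under alternatives, 301 kept their direction and 23 turned. In contact against structural mutants, MT2A turned to -0.48 with all 13 lines, -0.058 with quantile normalization and -0.023 with the covariate, and ran from -0.096 (without R273C) to 0.17 without single lines, below 0 also without H179R, R273H or Y163C. MT1F turned to 0.090 with all 13 lines and 0.080 with the covariate, and ran from -0.79 to 0.55 (without R273H) without single lines, above 0 also without Y220C. MT1M ran from -0.28 (without R248Q) to 0.77. In zinc-site against other structural mutants, MT2A ran from -0.49 to 0.17 (without H179R), above 0 also without G245S. MT1E turned to 0.10 with all 13 lines and 0.26 with the covariate. MT1X turned to 0.053 with all 13 lines and ran from -0.79 to 0.17 (without H179R). MT1F turned to 0.38 with all 13 lines, 0.033 with quantile normalization and 1.38 with the covariate, and ran from -0.51 to 0.40 (without Y220C), above 0 also without R175H.

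Mutants against controls called 6 genes, and 2 to 11 without single lines (2 without R248Q, R248W, R273C or the library labelled WTOE, 11 without WTKD). Contact against structural mutants called 1, and 0 with all 13 lines, 12 at a pseudocount of 0.1, 10 without the filter, 0 with quantile normalization and 0 to 4 without single lines (4 without R273H). Zinc-site against other structural mutants called 1, and 7 at a pseudocount of 0.1, 11 without the filter and 0 to 5 without single lines (0 without H179R, 5 without Y163C). At an unadjusted p under 0.05, contact against structural mutants gave 743 to 1263 genes in the settings that called 0 by limma, and zinc-site against other structural mutants gave 646 without H179R. At a -log10 q of at least 3 the peak near a member was lost in Y234C and in R273H (0 each), and within 50 kb the library labelled WTOE gained 1. Without the humanin-like genes, MT2A took 15.2% of TPM in Y234C and 1.03% to 2.67% in the other 12. The cause of these changes was not tested.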
